A study of Mus musculus with 4 samples.

Results

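Glycolysis splits glucose into pyruvate in the cytosol, and lactate dehydrogenase can then turn pyruvate into lactate. T cells raise glucose uptake and glycolysis when they are activated, and the genes of the pathway are usually highly expressed in dividing cells. The genes described here are 9 members of that pathway, Slc2a1, Hk2, Pfkp, Aldoa, Tpi1, Gapdh, Eno1, Pkm and Ldha, together with Fam57b, which lies on the strand opposite Aldoa and encodes a membrane protein linked to ceramide synthesis. They were chosen by name, and are 10 of the 50600 genes counted.

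The data are RNA sequencing gene counts of 4 libraries of primary T-helper 2 cells from the mouse strain C57BL/6NJ. The labels form a single group from biological replicates 1 to 4, each its own biosample under a shared donor identifier, with sex not collected, age unknown and no genotype or treatment given. File headers carry a time of 72 h whose meaning is not stated. The assay is labelled as total RNA sequencing, whereas the library protocol document is named for poly(A)+ RNA, and another document named there covers CD4+ T cell differentiation.

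Gene counts summed to 2388255, 1929880 and 1713199 in replicates 1, 3 and 4, and to 5016 in replicate 2, which was 341.5-fold below the lowest of the others. A floor of 3 counts was worth 1.26 to 1.75 CPM (counts scaled to the library total) in those 3 libraries and 598 CPM in replicate 2, so levels and tests use replicates 1, 3 and 4. Between libraries, chi-square per degree of freedom was 2.04 to 8.07, so no library was a second copy of another. All 9 T cell and all 9 T-helper 2 markers examined had counts, though Il1rl1, with 1, 3 and 2 counts in replicates 1, 3 and 4, did not exceed the floor. The lists had summed levels of 132 to 235 and 111 to 210 TPM (a level that also corrects for exonic length), lowest in replicate 3 for both lists. Cd247, a gene with opposite-strand exons, held 105.9, 88.3 and 97.8 TPM of the T cell sum in replicates 1, 3 and 4. Cd3e, Il5, Gata3, Ptgdr2 and Stat6 of these lists have opposite-strand exons too. Ifng, Il17a, Gzma, Prf1, Ms4a1, Cd79b, Itgam, Adgre1, Hbb-bs and Hba-a1, which mark other helper, cytotoxic, B, myeloid and erythroid cells, had no count in replicates 1, 3 and 4. Other markers of B and erythroid cells did have counts, with 5, 11 and 17 for Cd79a, and 36, 35 and 27 for Alas2, a gene with opposite-strand exons. Summed levels of the other T cell lists were 0.715 to 2.24 TPM for T-helper 1, 2.02 to 3.69 for T-helper 17 and 0 to 1.14 for cytotoxic T cells. The myeloid list summed to 133.7 to 152 TPM, and Csf1r, a gene with opposite-strand exons, held nearly all of it. Genes with exons opposite those of another gene were 8189 in number, or 16.2% of all genes. They took 90.7% of the counts in replicate 1, 94.2% in replicate 3 and 91.3% in replicate 4.

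Counting was strand-specific: a fragment was assigned to a gene only if it lay on the strand that the counting setting assigned to that gene, per the file headers. No source used here gives the orientation of the library reads against that setting, so each level below is the level on the counted strand. If the reads ran opposite to the setting, the counts given to Fam57b would lie on the strand of Aldoa. The marker levels above, and the levels, strand ratios, shares and test calls below, would then not hold as stated for the named genes. Levels for the turned orientation cannot be computed from these files, because a fragment was counted only where it met an exon annotated on the counted strand. Aldoa encodes the aldolase that splits fructose bisphosphate, and it lies on the minus strand of chromosome 7 at chr7:126795234-126809108 (mm10). Fam57b lies on the plus strand at chr7:126797668-126830219. Their exons met in 25 bases, which are 0.665% of the 3762 exonic bases of Aldoa and 0.635% of the 3935 of Fam57b. In the GENCODE vM21 annotation these 25 bases lie in coding exon 2 of Aldoa and are coding in 8 of its 10 coding transcripts. On the other strand they are the whole untranslated first exon of 1 of the 7 Fam57b transcripts. That transcript has 9 exons, and 19192 intronic bases separate the first exon from the second, which starts 7776 bases beyond the end of Aldoa.

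The sequences of the shared bases follow, 5′ to 3′, from GENCODE vM21 transcripts on GRCm38, since these bases are the exonic contact between both genes. The Aldoa line is the 112-base coding part of exon 2, at chr7:126797644-126797755 on the minus strand, with the shared bases chr7:126797668-126797692 in capitals. The Fam57b line is its first exon on the plus strand, which is the reverse complement of those capitals.
Aldoa: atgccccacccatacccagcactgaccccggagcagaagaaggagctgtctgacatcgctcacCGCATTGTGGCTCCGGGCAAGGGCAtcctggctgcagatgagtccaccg
Fam57b: TGCCCTTGCCCGGAGCCACAATGCG

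**Figure D1:**
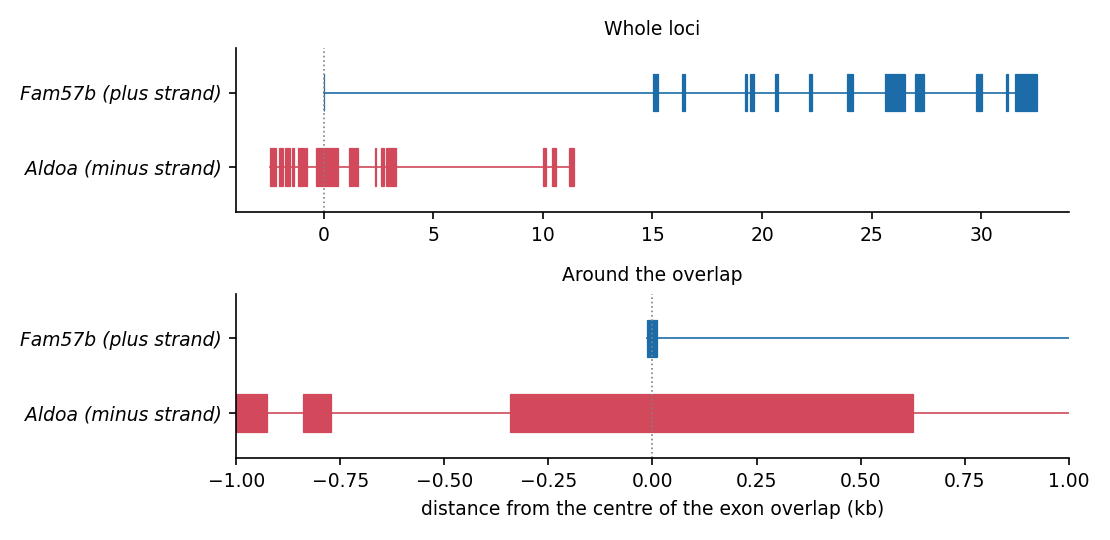
Exons of Aldoa (minus strand, 15 blocks) and Fam57b (plus strand, 13 blocks) drawn to scale against the distance in kb from the centre of their exonic overlap. The 25 shared bases are the only place where blocks of both genes meet, and the rest of the Fam57b exons lie beyond the end of Aldoa.

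Fam57b was counted far above every glycolysis gene in the list. It held 14776, 12310 and 10223 counts in replicates 1, 3 and 4, which is 0.619%, 0.638% and 0.597% of all gene counts of these libraries. These counts were nearly proportional to depth, and replicate 3 had the largest share by a small margin. Aldoa held 315, 98 and 180 counts in the same libraries. Replicate 3 was the lowest for Aldoa, and the counts of Aldoa and Fam57b stayed far apart in every library. In replicate 2, Fam57b had 9 counts, Pfkp 3, Aldoa, Tpi1, Eno1 and Pkm 1 each, and Ldha, Gapdh, Hk2 and Slc2a1 none.

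Per kb of exon, Aldoa had 83.7, 26.0 and 47.8 counts in replicates 1, 3 and 4, and Fam57b had 3755, 3128 and 2598. The opposite strand was therefore the denser one in each of the 3 libraries. The log2 ratio of Fam57b to Aldoa density was 5.48, 6.90 and 5.76, with a mean of 6.05 ± 0.75 (SD, n = 3). Pooled over the 3 libraries the ratio of densities was 60.1, with an exact 95% interval of 55.5 to 65.3 that covers counting error only. Flipping the signs of the library log2 ratios, in an exact permutation test of both sides, gave p = 0.25, the smallest p that 3 libraries allow, and 0.25 after Benjamini-Hochberg adjustment over 5 pairs. The files give 1 count per gene and none per exon, so where along Fam57b its fragments lay was not analysed here.

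Such an excess of the opposite strand was common in these libraries. The background was 2780 pairs of a protein-coding gene and a gene with overlapping exons on the other strand, with 300 or more counts together. A pair of which both genes are protein-coding was counted from each side, with the sign of its ratio reversed. Of these pairs the partner was denser in every library in 65.9% and sparser in every library in 32.3%. The Aldoa and Fam57b pair had a larger log2 ratio than most of them, with 863 of the 2780 pairs at or above it and a median of 3.42 over all. Among the 164 pairs that share no more than 50 exonic bases, 42 were at or above it, against a median of 2.32.

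Of the 10 genes, 6 had opposite-strand exons, and Fam57b is itself the partner of one of them, which left 5 pairs. The partner was denser in each library in 3 of these 5 pairs (Aldoa, Slc2a1 and Tpi1) and the glycolysis gene in the other 2 (Pfkp and Gapdh), which is close to the share over all pairs. Ldha, Pkm, Eno1 and Hk2 had no exon opposite another gene.

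Slc2a1 encodes the glucose transporter GLUT1, through which activated T cells take up glucose, and lies at chr4:119108711-119137983 on the plus strand. Its counts were 23, 8 and 10 in replicates 1, 3 and 4, the fewest of the 10 genes. Gm12868, a predicted gene on the other strand with 105 bases in common, held 1006, 633 and 584 counts. Replicate 1 was highest for both genes, and in no library did their counts approach each other.

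Per kb of exon these were 6.56, 2.28 and 2.85 counts for Slc2a1 and 2412, 1518 and 1400 for Gm12868. The log2 density ratio of Gm12868 to Slc2a1 was 8.49, 9.29 and 8.87, with a mean of 8.88 ± 0.40 (SD, n = 3; exact sign-flip permutation p = 0.25, adjusted 0.25). The pooled ratio was 456, with an exact interval of 335 to 637, and 258 of the 2780 pairs had a ratio at or above this one. The shared stretch is all coding in Slc2a1 and makes up 25.2% of the exonic bases of Gm12868.

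The other 3 pairs meet tail to tail, where both genes end, and showed no such excess. Tpi1 encodes triosephosphate isomerase, which interconverts the 3-carbon products of aldolase, and lies at chr6:124810586-124814296 on the minus strand. Its counts were 232, 72 and 132, against 157, 78 and 101 for Spsb2, a SOCS box protein gene that shares 34 bases with it. Tpi1 had the higher count in replicates 1 and 4 and Spsb2 in replicate 3.

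Per length, Spsb2 was the denser gene in each library, by log2 ratios of 0.17, 0.85 and 0.35 (mean 0.45 ± 0.35, SD, n = 3; exact sign-flip permutation p = 0.25). By counts without the correction for length the mean log2 ratio turned to −0.28. The pooled density ratio was 1.28, with an exact interval of 1.11 to 1.48.

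Pfkp encodes the platelet form of phosphofructokinase, the committed step of glycolysis, and lies at chr13:6579768-6648777 on the minus strand. It had 968, 854 and 682 counts, while Pitrm1, a mitochondrial peptidase gene that shares 372 bases with it, had 32, 12 and 20. Pfkp was thus the denser of the pair in all 3 libraries, and the pooled density of Pfkp was 14.7 times that of Pitrm1, with an exact interval of 11.5 to 19.1. Gapdh encodes glyceraldehyde-3-phosphate dehydrogenase and lies at chr6:125161715-125166467 on the minus strand. It had 382, 107 and 236 counts against 8, 5 and 5 for Iffo1, an intermediate filament family gene that shares 68 bases, and its pooled density was 55.5 times higher, with an exact interval of 34.8 to 94.1. The log2 partner-to-gene ratios were −3.94 ± 0.65 for Pfkp and −5.53 ± 0.68 for Gapdh (SD, n = 3; exact sign-flip permutation p = 0.25 each).

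**Figure D2:**
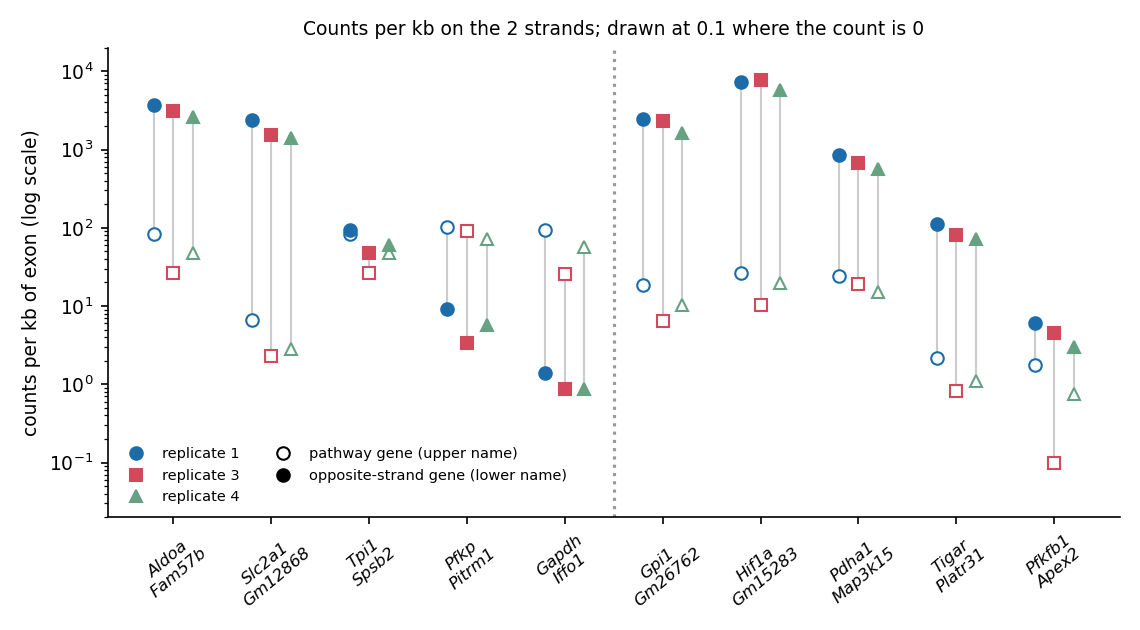
Counts per kb of exon on a log axis for pathway genes (open) and the genes on the other strand (filled) in replicates 1, 3 and 4, with zeros drawn at 0.1. Filled points lie far above open ones for Aldoa and Slc2a1, near them for Tpi1, and below them for Pfkp and Gapdh.

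Among 33 further genes of glycolysis and its control, 11 had a partner with overlapping opposite-strand exons. The partner was denser in each library for 5 of the 11 (Hif1a, Gpi1, Pdha1, Tigar and Pfkfb1), and the pathway gene for 4 (Adpgk, Hk3, Pfkfb2 and Pfkm), while for Hk1 and Hk1os the direction differed between libraries. Pklr and Hcn3 held 2 and 1 counts in all, too few for a direction. All pairs with 300 or more counts together were again counted from each protein-coding gene. The partner was denser in every library in 65.9% of them and sparser in every library in 32.3%. The pairs of Adpgk, Hk3, Hk1, Pfkfb1 and Pklr fall below that minimum. Hif1a, the oxygen-regulated transcription factor that induces many glycolysis genes, had 155, 61 and 115 counts against 10575, 11394 and 8412 for Gm15283. Gm15283 had its highest count in replicate 3, where Hif1a was lowest. As CPM, Fam57b and Gm26762 were highest in replicate 3 as well. Map3k15, opposite Pdha1, had 1556, 1530 and 1424 CPM in replicates 1, 3 and 4. Gm12868 had 421, 328 and 341 CPM, so both were highest in replicate 1. The mean log2 density ratio of Gm15283 to Hif1a was 8.63 ± 0.81 (SD, n = 3), above that of Aldoa and Fam57b.

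Gpi1, the isomerase that follows hexokinase, had 119, 42 and 67 counts against 13136, 12326 and 8605 for Gm26762, with a mean log2 density ratio of 7.61 ± 0.75. Pdha1, a subunit of pyruvate dehydrogenase, had 90, 71 and 57 counts against 3715, 2953 and 2439 for Map3k15, a kinase gene, and the ratio was 5.16 ± 0.03 (SD, n = 3 for both). The ratio of Pdha1 barely moved between libraries, whereas that of Gpi1 was largest in replicate 3. Tigar, a phosphatase that lowers glycolytic flux, and Platr31 had a ratio of 5.96 ± 0.42 on 8, 3 and 4 counts of Tigar. Pfkfb1 had 7, 0 and 3 counts against 53, 40 and 26 for Apex2, with log2 ratios of 1.71 in replicate 1 and 1.80 in replicate 4, and no ratio is given for replicate 3.

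The counts on a pathway gene's own strand, as a share of the counts of the pair, moved between libraries. Aldoa took 2.09%, 0.790% and 1.73% of the counts of its pair in replicates 1, 3 and 4. The 95% Wilson intervals of these values ran from 1.87 to 2.33, from 0.649 to 0.962 and from 1.497 to 2.00. The remaining 97.9%, 99.2% and 98.3%, counted for Fam57b, would be the share on the strand of Aldoa if the orientation were turned. The share of replicate 3 lay below the intervals of both other libraries. For Slc2a1 the share was 2.24%, 1.25% and 1.68%, and its Wilson intervals overlapped (1.49 to 3.33, 0.634 to 2.44 and 0.917 to 3.07).

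Hif1a (1.45%, 0.533% and 1.35%) and Gpi1 (0.898%, 0.340% and 0.773%) were lowest in replicate 3, and Pdha1 (2.37%, 2.35% and 2.28%) was nearly level. In all, 6 of the 7 pathway genes whose partner had the higher count had their lowest own-strand share in replicate 3, with Pdha1 the exception and Pfkfb1 at 0 counts there. The same held for 1151 of the 1831 pairs with a denser partner, or 62.9%, whose median share was 4.14%, 2.44% and 4.19% in replicates 1, 3 and 4. The part of these shifts in the lower Aldoa count of replicate 3 was not tested.

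**Figure D3:**
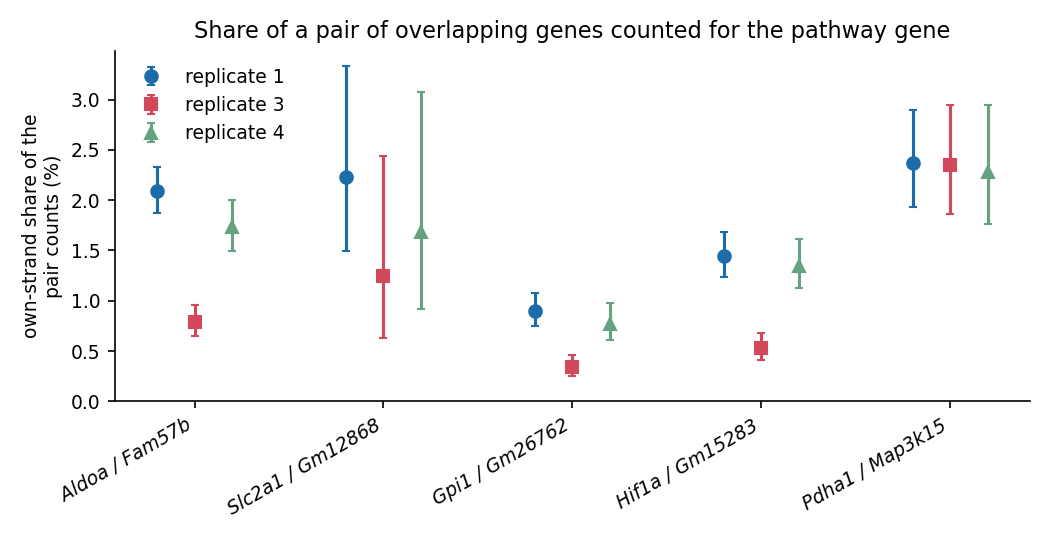
Own-strand counts as a percentage of the counts of the pair, with 95% Wilson intervals, by replicate, for the 5 pathway genes whose partners held the most counts. Aldoa, Gpi1 and Hif1a have a replicate 3 interval below both other replicates, while the intervals of Slc2a1 and Pdha1 overlap between replicates.

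On the counted strand, levels per length put Fam57b first and Slc2a1 last. Fam57b reached 2248, 2283 and 2191 TPM in replicates 1, 3 and 4 (2241 ± 46.4, SD, n = 3), rank 68 among the genes. Pfkp followed with 61.7, 66.3 and 61.2 TPM (63.1 ± 2.83), 35.5-fold lower on the log2 mean. Both were nearly level between libraries, with coefficients of variation of 2.07% and 4.49%.

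The enzymes of the later steps formed a middle group in which replicate 3 was always the lowest. Ldha, which makes lactate from pyruvate (chr7:46841475-46855627, plus strand), had 64.9, 18.7 and 60.1 TPM in replicates 1, 3 and 4. Pkm, the pyruvate kinase gene of dividing cells (chr9:59656368-59679375, plus strand), had 57.3, 22.0 and 46.7 TPM. Gapdh had 55.3, 18.9 and 48.2 TPM. None of these values in replicate 3 overlapped those of the other libraries.

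Tpi1 had 50.4, 19.1 and 40.4 TPM, and Aldoa had 50.1, 19.0 and 40.4 TPM, which are next to identical in every library. Eno1, an enolase (chr4:150236721-150248879, plus strand), had 20.4, 3.66 and 17.2 TPM, with the largest coefficient of variation of the 10 genes, 64.5%. Hk2, the hexokinase that commits glucose to the cell (chr6:82725025-82774454, minus strand), had 3.81, 2.57 and 4.38 TPM. Slc2a1 had 3.93, 1.67 and 2.41 TPM on 8 to 23 counts, so its level is the least precise.

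In the order Fam57b, Pfkp, Ldha, Pkm, Gapdh, Tpi1, Aldoa, Eno1, Hk2 and Slc2a1, 5 of the 9 neighbouring steps exceeded the SD of their log2 difference. The step from Fam57b to Pfkp was 5.15 ± 0.04 on the log2 scale. Pfkp and Ldha (0.59 ± 1.06), Ldha and Pkm (0.10 ± 0.31), Pkm and Gapdh (0.08 ± 0.13) and Gapdh and Tpi1 (0.12 ± 0.13) could not be told apart by that measure. Aldoa lay above Eno1 by 1.62 ± 0.63 and Eno1 above Hk2 by 1.61 ± 0.99. Hk2 and Slc2a1 differed by 0.46 ± 0.45 with the sign held in 2 of 3 libraries (SD, n = 3 for each step). Tpi1 and Aldoa differed by only 0.00599 ± 0.00312. That is far below the counting error of their 72 and 98 counts in replicate 3, so their order is not resolved.

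**Figure D4:**
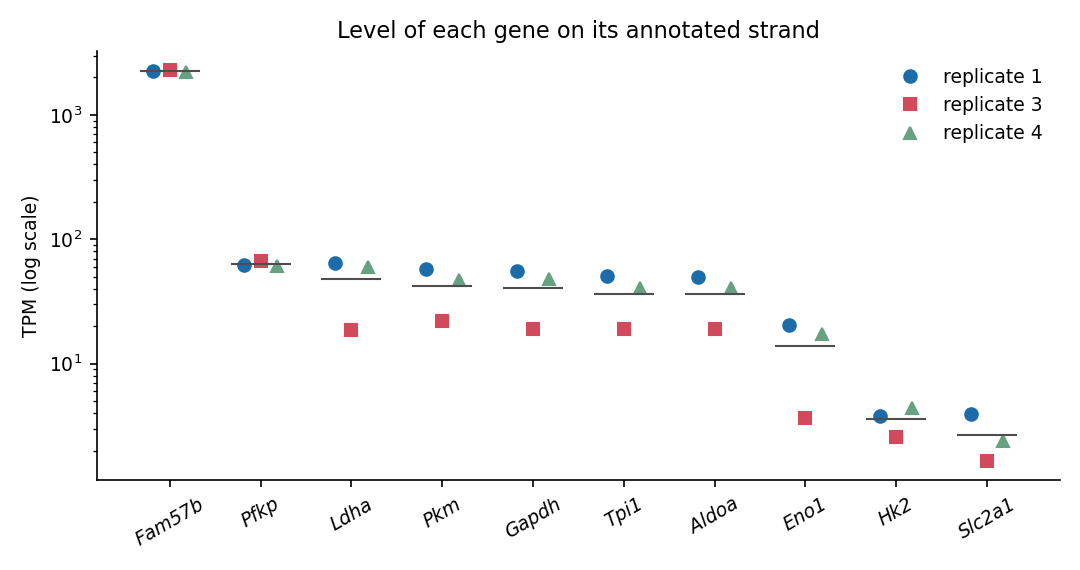
TPM on a log axis for the 10 genes, with 1 point per replicate (1, 3 and 4) and a bar at the mean. Fam57b stands near 2241 TPM, Pfkp and Fam57b have tightly grouped points, and the replicate 3 points of Ldha, Pkm, Gapdh, Tpi1, Aldoa and Eno1 lie below the others.

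Tested against a level of 1 TPM with limma on log2(TPM + 0.1), all 10 genes lay above it (Benjamini-Hochberg adjusted p under 0.05), against 43.1% of the 14282 genes tested. Their median was 5.01 log2 units above the threshold and that of all genes tested 0.77. Of 42 pathway genes, the 9 members included, 36 were tested, 22 lay above 1 TPM, 1 lay below (Pfkfb4, a bifunctional enzyme that sets fructose 2,6-bisphosphate) and 13 were on neither side, where 8.31% of all genes tested lay below. Hkdc1, Eno1b and Pdk4 had no count in the 3 libraries. The 5 highest other pathway genes were Pgam2, known as the muscle form of phosphoglycerate mutase, with 171, 133.8 and 156 TPM, Pfkm with 21.5 ± 0.967, Pgk1 with 14.5 ± 9.10, Pdha1 with 13.7 ± 0.787 and Hif1a with 13.2 ± 4.95 TPM (SD, n = 3). Pgam2 was thus above each of the 9 glycolysis genes, and Pgam1, the widely expressed form, had 16, 3 and 8 counts.

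The members fell into genes that were low in replicate 3 and genes that were not. As CPM, replicate 3 stood at 19.9% of the mean of replicates 1 and 4 for Eno1, 30.6% for Ldha, 37.2% for Gapdh, 42.8% for Tpi1, 42.9% for Aldoa and 43.2% for Pkm. Hk2 stood at 64.0% and Slc2a1 at 53.6%, while Fam57b and Pfkp stood at 105% and 110%. So Aldoa and the gene opposite it went separate ways. The share of all genes that were lowest in replicate 3 was not computed, so no count of the 10 genes is set against it. Among 6922 genes with a mean count of 10 or more, the median log2 deviation from a gene's own mean was −0.15 in replicate 3. It was 0.00 in the class with opposite-strand exons (quartiles −0.20 and 0.12) and −0.59 in the class without (quartiles −0.95 and −0.16). Low values in replicate 3 were thus common in the second class. The T cell markers summed to 228, 132 and 235 TPM in replicates 1, 3 and 4 and the T-helper 2 markers to 210, 111 and 207, also lowest in replicate 3, and their part in the result was not tested. Within the T-helper 2 list, Il13 had 96.4, 18.8 and 81.9 TPM, while Il4 had 31.7, 47.6 and 40.6 TPM and was highest in replicate 3. In bulk RNA, fewer cells of a type and less RNA per cell cannot be told apart.

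Each library was compared with the other 2 by the quasi-likelihood test of edgeR over 6922 genes, with Benjamini-Hochberg adjustment. The 3 libraries form 1 group, so this test compares libraries and not conditions, and it assumes that the lone library varies like the others. The spread it uses comes from the other 2 libraries and from values shared over genes, not from the lone library. In replicate 3, 6 of the 10 genes were called lower and none higher, where 12.4% of all genes tested were lower and 2.79% higher. Their median log2 fold change was −1.08, against −0.11 over all genes tested. Scaling by the median of ratios (RLE) in place of trimmed means (TMM) moved that median of all genes to −0.01, and the lower genes then made up 64.1% of the calls in place of 81.6%. It left the 6 calls lower and added Fam57b as higher.

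With TMM scaling Eno1 had the largest log2 change, −2.19 (SE 0.35, edgeR adjusted p = 1.19e-07), followed by Ldha with −1.57 (SE 0.24, adjusted p = 2.77e-08) and Gapdh with −1.29 (SE 0.23, adjusted p = 3.73e-06). The log2 changes of Tpi1 (−1.09, SE 0.28, edgeR adjusted p = 0.00272), Aldoa (−1.09, SE 0.25, adjusted p = 5.23e-04) and Pkm (−1.08, SE 0.21, adjusted p = 2.78e-05) were all but equal. Slc2a1 (−0.79, edgeR adjusted p = 0.434), Hk2 (−0.50, adjusted p = 0.505), Pfkp (0.27, adjusted p = 0.194) and Fam57b (0.21, adjusted p = 0.0721) did not pass. With RLE scaling the log2 change of Fam57b was 0.31 (edgeR adjusted p = 0.0382). DESeq2 gave log2 changes of −2.09 for Eno1, −1.47 for Ldha and −1.18 for Gapdh. Aldoa (−0.98), Tpi1 (−0.98) and Pkm (−0.97) did not pass in DESeq2.

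The share of genes called lower in replicate 3 itself differed by strand class. It was 4.82% (186 of 3862) among genes with opposite-strand exons and 22% (672 of 3060) among genes without. Aldoa, Tpi1 and Gapdh belong to the first class, and Eno1, Ldha and Pkm to the second. With scaling, spread and adjustment all redone within each class, Ldha and Pkm no longer passed. Their SE rose from 0.24 to 0.41 for Ldha and from 0.21 to 0.40 for Pkm. The log2 changes were then −1.42 for Gapdh, −1.36 for Eno1, −1.22 for Aldoa, −1.22 for Tpi1, −0.74 for Ldha and −0.24 for Pkm, so Gapdh and not Eno1 came first. The class with opposite-strand exons held 94.2% of the counts of replicate 3, against 90.7% and 91.3% in replicates 1 and 4, and the part of this difference in the calls was not tested.

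None of the 10 genes was called in the other contrasts. Replicate 3 is among the other libraries in both, so its low values are part of the spread there. The log2 change of Aldoa in replicate 1 was 0.69 with an SE of 0.35, where the SE was 0.25 in the replicate 3 contrast. The lack of calls therefore says little about these libraries. In replicate 1, where 0.0289% of all genes tested were higher and 0% lower, 1 of the 10 had an unadjusted p under 0.05, as did 131 of the 6922 genes, and DESeq2 called 2 genes in all. In replicate 4, where 0.0144% were higher and 0.0289% lower by edgeR, none of the 10 had an unadjusted p under 0.05, which 37 of the 6922 genes had, and DESeq2 called 0 of all genes.

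**Figure D5:**
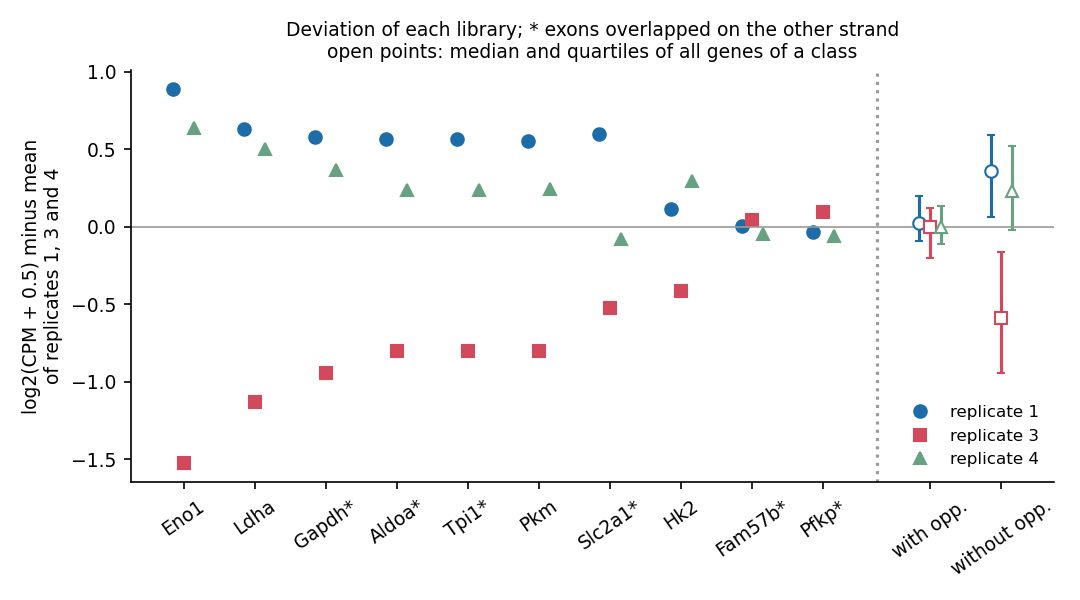
Deviation of log2(CPM + 0.5) from the mean of replicates 1, 3 and 4 for each of the 10 genes, where an asterisk marks genes with opposite-strand exons and open points with bars give the median and quartiles of all genes of each class. The replicate 3 points of Eno1, Ldha and Gapdh lie lowest, while the points of Fam57b and Pfkp stay near 0.

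As deviations of log2(CPM + 0.5) from each gene's own mean, the median of the 10 genes was 0.57 in replicate 1, −0.80 in replicate 3 and 0.24 in replicate 4, against 0.12, −0.15 and 0.06 over all genes tested. Among the 6 members with opposite-strand exons the median in replicate 3 was −0.66, where all such genes had 0.00. The 4 without had −0.96, where all such genes had −0.59. The members' median thus lay below that of their class in this library in both classes.

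The gene whose deviations were nearest to those of Aldoa among 2960 genes with a mean count of 50 or more was Tpi1, at a distance of 0.00448 log2 units over 3 libraries. Pkm was the second (0.0133), and Odc1, the ornithine decarboxylase of polyamine synthesis, the third (0.0186), while 28 genes (0.946%) lay within 0.1. Fam57b ranked 1718 from Aldoa, at a distance of 1.06. Nearest to Fam57b were 9330162G02Rik (0.00311), Gm12353 (0.00414) and Gm10550 (0.00526), each with opposite-strand exons, and 16.9% of the genes lay within 0.1 of it, Pfkp among them. Distances over 3 libraries rest mostly on how low replicate 3 is, and are descriptions. Those of the nearest genes are smaller than counting error, so the order among them is not resolved.

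Of the wider pathway list, 14 genes besides the members were tested, of which 3 were called lower in replicate 3 and none higher, again beside 12.4% and 2.79% of all genes. Pgk1, which makes the first ATP of the pathway's pay-off phase, had 84, 14 and 44 counts and a log2 change of −1.94 (edgeR adjusted p = 9.69e-04). Hk1, the constitutive hexokinase, had 68, 20 and 43 counts and −1.23 (edgeR adjusted p = 0.0373), and Hif1a had −0.92 (adjusted p = 0.0257). Replicate 3 was the lowest library for all 3 genes. Gpi1 had a log2 change of −0.90 (adjusted p = 0.0530) and did not pass.

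Glycolysis genes have near-identical processed copies that can share fragments with them. Of 14 annotated genes or pseudogenes named for Aldoa, Ldha, Eno1, Gapdh or Tpi1, 12 had no count in replicates 1, 3 and 4, Tpi-rs5 had 3 and Tpi-rs8 had 1. Copies were sought by gene name only, and those named otherwise were not examined. No source used here says how the counting treated fragments that match several places, so the counts of the members are uncertain to that extent.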

How the data were processed

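RNA was sequenced from 4 libraries of T-helper 2 cells. The authors deposited whole-number counts of fragments over GENCODE vM13 exons, from featureCounts 1.4.6-p4 run on STAR alignments (mm10), per the file headers. Both mates had to map and the strand setting was 1, per the file headers. No source used here gives the version of the aligner.

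TPM, CPM and counts per kb were computed from the counts and exonic lengths (Python 3.11.15, pandas 2.3.3, numpy 2.4.6, scipy 1.17.1). Symbols and transcripts came from GENCODE vM21, where 224 identifiers had no symbol. Opposite-strand exon overlaps of 1 base or more were found with bedtools 2.31.1, and log2 density ratios used 0.5 added counts. R 4.3.3 ran edgeR 4.0.16 (TMM, mean count of 10 or more, glmQLFit and glmQLFTest), DESeq2 1.42.0 as an alternative, and limma 3.58.1 against 1 TPM (log2(TPM + 0.1), trended, mean count of 1 or more). Calls used a Benjamini-Hochberg adjusted p of 0.05 over all genes tested, or over the genes of a class where the fit was run within strand class. The edgeR and limma scripts were tested on simulated data before use; DESeq2 was not. Sign-flip tests were exact and two-sided. P-values of limma and of the sign-flip tests measure the spread between these libraries, which share a donor identifier and may be technical. Those of edgeR and DESeq2 rest on the libraries other than the lone one and on a spread shared over genes. Counting error alone is covered by intervals and floors.

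The members, the pathway list and the markers were chosen with earlier results of these data known. A few marker values and 1 sequence are not reported here. Genes named were the members, their opposite-strand partners, pathway genes that were called, had a partner of higher count or ranked in the top 5 by TPM, and the 3 genes nearest to Aldoa and Fam57b; others were chosen after their values were seen. Alternatives were other scalings, filters and pseudocounts, fits within strand class, counts in place of densities, replicate 2 added and each library left out.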

Additional observations from a re-analysis of the deposited data

Results flagged for a closer look

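Fam57b stood apart in replicate 2 in the gap test over 4 libraries. It held 9 of the 5016 counts there, 1794 CPM (exact 95% interval 821 to 3403), while the other libraries had 5967 to 6379 CPM. The gap to the next library was 0.910 of the whole range, above the 95% critical value for 4 libraries. Chance flags about 1 in 20 of such groups, and 14 genes were examined.

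Replicate 2 was left out of the comparisons for its depth, yet 4 genes of the pairs had more than the floor of 3 counts in it. Gm26762, opposite Gpi1, had 19 counts, Fam57b had 9, Gm15283, opposite Hif1a, had 8 and Map3k15, opposite Pdha1, had 6. The glycolysis genes had at most 3 counts there, that of Pfkp, and 4 of the 10 genes (Ldha, Gapdh, Hk2 and Slc2a1) had none, which at this depth allows up to 598 CPM.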

How the results depend on the processing

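Of the alternatives, 161 left a value in place and 50 changed it. Values counted as in place could still move, as the log2 ratio of Spsb2 over Tpi1 did from 0.45 to 0.13 with replicate 2 added. The median deviation of the members in replicate 3, counted so too, went from −0.80 to −0.52 without replicate 1. With replicate 2 added, mean log2 density ratios were 5.19 for Fam57b over Aldoa, 8.01 for Gm12868 over Slc2a1 and −4.26 for Iffo1 over Gapdh, 57.8% of pairs had the denser partner, 6 members and 6 pathway genes lay above 1 TPM, and 2 neighbouring steps exceeded their SD. By counts without length the log2 ratio was −5.35 for Pitrm1 over Pfkp, 5.81 for Gm12868 over Slc2a1 and, reversed, −0.28 for Spsb2 over Tpi1.

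In replicate 3, the main 858 lower and 193 higher calls became 379 lower with RLE scaling, 560 lower with no filter, 172 lower within strand class and 36 lower with 20 higher in DESeq2, and 50 were higher with replicate 2 added. The lower share of all calls was 81.6%, 64.1% with RLE, 64.3% in DESeq2, 71.0% with no filter, 49.3% within class and 93.8% with replicate 2. DESeq2 called 3 members lower, and RLE scaling and no filter each called 1 member, Fam57b, higher (edgeR adjusted p = 0.0382 and 0.00118). The log2 change of Hk2 turned to 0.34 within class. In replicate 1 the 2 higher calls became 1 with no filter and 4 within class. In replicate 4 the 1 higher call became 0 in each of the 5 alternatives, and the 2 lower calls became 0 in DESeq2 and within class.

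Leaving out a library gave log2 ratios of 5.62 to 6.33 for Fam57b over Aldoa, and median deviations of the members of 0.12 to 0.68 in replicate 1, −0.68 to −0.52 in replicate 3 and −0.12 to 0.52 in replicate 4. Without replicate 3 they were 0.12 in replicate 1 and −0.12 in replicate 4, so the contrast between the libraries rests on replicate 3. Members above 1 TPM were 9 to 10 and pathway genes above it 18 to 25. The 1 pathway gene below 1 TPM became 0 to 0 without any library, 3 with a pseudocount of 1, 4 with no filter and 0 with TPM over protein-coding genes. Leaving a library out of the edgeR contrasts leaves 1 against 1, a value with no test, and Aldoa then lay at −1.37 to −1.04. The cause of these changes was not tested. No paired analysis was possible because the libraries form a single group. Among the 10 genes, depth limits Slc2a1 and Hk2 most.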
